A study of Mus musculus with 2 samples.

Results

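The genes described here are 10 genes of the unfolded protein response and the integrated stress response, namely Atf4, Ddit3, Ddit4, Herpud1, Hspa5, Xbp1, Trib3, Asns, Sesn2 and Gdf15. They are 10 of the 31053 genes in the deposited count matrix, are named by symbol with no threshold on their values, and are followed over every cell with at least 200 detected genes and at most 20% mitochondrial transcripts. This rule kept 5328 of 6272 cell barcodes. All 10 genes had at least 20 UMIs (unique molecular identifiers, each counted once per captured transcript) over the kept cells.

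The tissue was the cribriform plate, the perforated bone under the olfactory bulbs, with olfactory bulb and pieces of nasal mucosa included. Its cells were pressed through a mesh, stained, and sorted for live cells carrying podoplanin and CD31 but not the leukocyte protein CD45. The groups were wild-type C57BL/6J females aged 10 weeks, either healthy or with EAE (experimental autoimmune encephalomyelitis, in which immunity against myelin inflames the brain and spinal cord), and each group was a pool of 5 mice and 1 library. The matrix holds both libraries under barcode suffixes 1 and 2, and no label or header used here says which suffix is healthy and which is EAE. Each value is therefore given for library 1 and then for library 2. There is no replicate and no test, cells are not replicates, and a difference is one between these libraries, not between the conditions.

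The unfolded protein response is the reaction of a cell to misfolded protein in the endoplasmic reticulum (ER). It runs through the membrane sensors PERK, IRE1 and ATF6, which raise chaperones, export factors and protein degradation, while PERK also slows translation by phosphorylating eIF2α. Phosphorylated eIF2α is shared with kinases that sense lack of amino acids, double-stranded RNA or lack of haem, and this wider branch, the integrated stress response, acts through the transcription factor ATF4. In macrophages and microglia, several of these genes are also known to respond to inflammatory stimuli and to handling of the tissue.

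Library 1 gave 3406 kept cells with a median of 7334 UMIs and library 2 gave 1922 with a median of 9782.5. Median mitochondrial shares were 1.54% and 3.74%, and 7 barcode sequences occurred among the kept cells of both libraries. The sort aimed at lymphatic endothelium, but most cells held transcripts that mark microglia, the macrophages resident in brain tissue. Clusters called microglia-like took up 3194 kept cells in library 1 (93.8%) and 1811 in library 2 (94.2%). In these cells the 9 microglia markers summed to 19452 and 10356 CPM (the summed UMIs of the genes scaled to a total of 1000000), whereas 7 markers of lymphatic endothelium summed to 15.2 and 6.13 CPM, with Flt4 at 0 in library 1 and Mmrn1, Reln and Pdpn at 0 in library 2. What follows is therefore mostly a description of microglia-like cells. Free microglial RNA was low by the sensory-neuron-like cells, which held 135 CPM of the 9 microglia markers in library 1 (7 cells) and 42.3 CPM in library 2 (37 cells). Other clusters held more of these markers, with 3751.0 CPM in the nasal-epithelial-like cluster and 2040.4 CPM in an unnamed one. The source of these transcripts was not tested.

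The promoters of 4 of the genes are shown first, because Hspa5 and Herpud1, which are among those that stood farthest apart between the libraries, carry known stress elements there, and Asns, which did not stand apart, carries another. The sequences are the 250 bases before the annotated start, on the strand of the gene, from RefSeq with build GRCm38.p6. They were matched by gene symbol, since the build behind the deposited counts is not given in the sources used here. All 10 genes were matched. Capitals mark matches to 8 motifs searched on both strands, and the motif list was drawn up after these promoters had been read. The Hspa5 promoter lies at chr2:34771840-34772089 on the plus strand, that of Herpud1 at chr8:94386179-94386428 on the plus strand, that of Ddit3 at chr10:127290543-127290792 on the plus strand, and that of Asns at chr6:7693210-7693459 on the minus strand.
Hspa5: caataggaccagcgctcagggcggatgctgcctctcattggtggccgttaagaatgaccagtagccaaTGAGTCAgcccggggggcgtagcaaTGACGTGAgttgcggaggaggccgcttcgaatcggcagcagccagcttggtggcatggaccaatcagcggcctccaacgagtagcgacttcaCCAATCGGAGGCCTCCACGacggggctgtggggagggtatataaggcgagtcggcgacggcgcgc
Herpud1: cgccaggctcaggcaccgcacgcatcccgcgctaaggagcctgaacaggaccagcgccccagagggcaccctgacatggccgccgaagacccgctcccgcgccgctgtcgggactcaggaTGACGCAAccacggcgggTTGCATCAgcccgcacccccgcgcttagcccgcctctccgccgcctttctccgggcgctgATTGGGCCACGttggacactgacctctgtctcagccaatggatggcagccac
Ddit3: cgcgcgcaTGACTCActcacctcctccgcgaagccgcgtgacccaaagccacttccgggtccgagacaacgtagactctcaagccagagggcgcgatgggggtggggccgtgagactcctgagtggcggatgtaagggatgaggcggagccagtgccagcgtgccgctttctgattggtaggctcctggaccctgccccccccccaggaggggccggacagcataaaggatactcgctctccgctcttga
Asns: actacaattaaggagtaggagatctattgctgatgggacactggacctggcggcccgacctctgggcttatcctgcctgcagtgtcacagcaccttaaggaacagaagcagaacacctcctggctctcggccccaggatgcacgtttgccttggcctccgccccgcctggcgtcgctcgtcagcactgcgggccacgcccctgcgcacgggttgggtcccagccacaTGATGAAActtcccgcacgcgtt

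In Hspa5, the capitals from base -65 to base -47 are an ER stress element (ERSE, CCAAT and CCACG with 9 bases of any kind between them), the arrangement bound by ATF6 together with NF-Y. It occurred in 37 of 32851 mouse promoters of this length (0.113%). Upstream of it stand a match to the CRE-like motif TGACGTNA, found in 2.52% of promoters, and a match to the AP-1 motif TGANTCA, found in 6.75%. In Herpud1, capitals from base -52 to base -42 mark the compact ER stress element ERSE-II (ATTGG and CCACG with 1 base between them), which was found in 10 of 32851 promoters (0.0304%). The other Herpud1 capitals are a TGATGNAA composite of the C/EBP and ATF kind on the opposite strand (3.45% of promoters) and the CRE-like TGACGCAA (0.438%). Ddit3 had an AP-1 match, and Asns had TGATGNAA starting at base -23, the core letters of its known amino acid response element. The UPRE core (TGACGTGG, in 0.563% of promoters) and the heat shock motif (0.466%), also searched, had no match in these 10 genes. No listed motif was found in this window of the other 6 genes. A match is a run of letters and not a measured binding site.

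Across all kept cells, 4 of the 10 genes were more than 2-fold higher in library 1, namely Hspa5, Herpud1, Ddit3 and Gdf15, and none was more than 2-fold higher in library 2. Among all 13891 genes with at least 20 UMIs, 8.37% were more than 2-fold higher in library 1 and 14.2% in library 2. The median log2 ratio of library 1 over library 2 was 0.79 for the 10 genes and -0.04 for all genes tested. The remaining 6 genes lay within 2-fold. The genes were proposed with earlier results of these data known, so the count describes them and is no independent evidence.

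**Figure D1:**
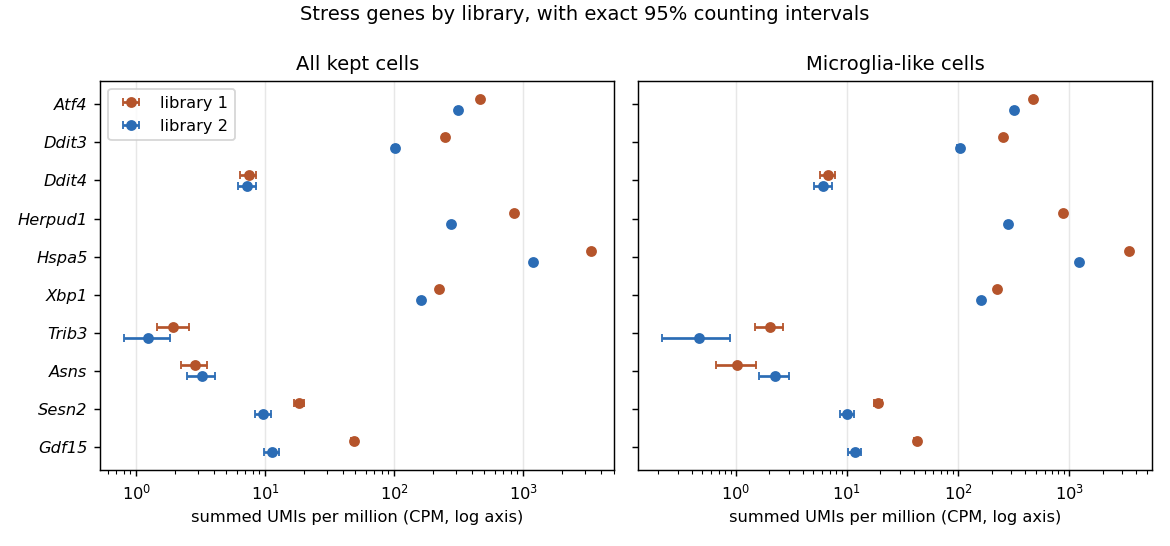
CPM of the 10 stress genes on a log axis, for all kept cells (left) and microglia-like cells (right) of library 1 and library 2, with exact 95% counting intervals as bars. Hspa5, Herpud1, Ddit3 and Gdf15 lie clearly to the right in library 1 in both panels. Asns is lower in library 1 in both panels, and its intervals overlap over all kept cells only.

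Hspa5 encodes BiP, the main ER chaperone of the HSP70 kind, which also holds the stress sensors inactive. It gave 85666 UMIs in library 1 and 24264 in library 2, or 3324.8 CPM (counting interval 3302.5 to 3347.1) against 1196.3 CPM (1181.3 to 1211.5). The ratio was 2.78 (2.74 to 2.82). Nearly every cell held the transcript in both libraries, 98.2% and 97.1%, so the libraries differed in the amount per cell: the median cell held 19 UMIs in library 1 and 10 in library 2, although cells of library 2 were deeper. After each cell had been thinned to 1000 UMIs, which left out 87 and 15 shallower cells, 87.8% and 63.7% of cells held Hspa5. The top 1% of cells held 5.72% and 4.78% of its UMIs, and without them the ratio was 2.76. Among 121 genes within 2-fold of its mean level, 97.5% had a smaller ratio.

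Herpud1 encodes a membrane protein of ER-associated degradation (ERAD), which removes misfolded proteins from the ER. Its level was 852 CPM in library 1 and 276 CPM in library 2, a ratio of 3.09 (3.0 to 3.18). It was found in 91.2% and 80.5% of cells, and in 48.2% and 22.6% of cells at 1000 UMIs. As with Hspa5, the top 1% of cells held a small part of the UMIs, 6.37% and 6.57%.

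Xbp1 encodes the transcription factor whose messenger RNA is spliced by IRE1. Its total level was 223 CPM in library 1 and 160 CPM in library 2, a ratio of 1.40 (1.34 to 1.46). The shares of cells with a UMI were alike without thinning, 71.0% and 71.6%, and 20.2% and 14.2% at 1000 UMIs. Counts per gene do not separate spliced from unspliced Xbp1, so the activity of IRE1 was not measured.

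Atf4 encodes the factor at the centre of the integrated stress response, which is regulated mainly through translation of its messenger RNA. Its level was 464 CPM in library 1 and 309 CPM in library 2, a ratio of 1.5 (1.46 to 1.55). It was present in 86.3% and 86.4% of cells, and in 35.1% and 25.2% at 1000 UMIs. Ddit3 encodes CHOP, a factor downstream of ATF4 that is linked to cell death under lasting ER stress. Its level was 246 CPM in library 1 and 102 CPM in library 2, a ratio of 2.42 (2.30 to 2.54). Unlike Atf4, it was found in more cells of library 1 even without thinning, 68.2% against 55.2%, and in 19.7% against 10.2% at 1000 UMIs.

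Trib3, a pseudokinase gene that is raised by ATF4 and CHOP and restrains them, was near the limit of detection. It had 50 UMIs in library 1 and 25 in library 2, or 1.94 and 1.23 CPM, and its ratio of 1.57 had an interval from 0.956 to 2.66. Asns, which makes asparagine and is a classical target of ATF4 in amino acid shortage, had 73 and 65 UMIs (2.83 and 3.21 CPM) and a ratio of 0.884 (0.624 to 1.26). For both genes the interval included equal levels. Each count of 3 UMIs stands for 0.116 CPM in library 1 and 0.148 CPM in library 2, so these genes were measurable but sparse.

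Sesn2 encodes sestrin 2, a stress protein that restrains the growth kinase complex mTORC1. Its level was 18.2 CPM in library 1 and 9.57 CPM in library 2, and the ratio of 1.90 (1.60 to 2.26) lay just under 2-fold. Ddit4 encodes REDD1, another inhibitor of mTORC1, which also answers to hypoxia and glucocorticoids. It stood at 7.41 and 7.25 CPM, with a ratio of 1.02 (0.821 to 1.28). The mTORC1 inhibitors thus gave different values, with only Sesn2 higher in library 1 beyond its counting error.

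Gdf15 encodes a secreted stress cytokine of the TGF-β superfamily. Over all kept cells its ratio was the highest of the 10 genes, 4.35 (3.77 to 5.03), though it was 2.77 with a pseudocount of 10 CPM. It stood at 48.6 CPM in library 1 and 11.2 CPM in library 2. Its transcripts were concentrated in few cells, 7.93% and 4.06% of them without thinning and 2.68% and 0.996% at 1000 UMIs. The top 1% of cells held 57.7% of its UMIs in library 1 and 66.5% in library 2, and 33 and 6 cells held 10 UMIs or more, up to 62 and 18 in a cell. Without the top 1% of cells of each library the ratio was 5.49.

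Within the microglia-like class, 5 of the 10 genes were more than 2-fold higher in library 1 and 1 was more than 2-fold higher in library 2, against 8.7% and 10.3% of 12391 genes tested in these cells. Hspa5 stood at 3430 and 1224.7 CPM (2.80-fold), Herpud1 at 881 and 280 CPM (3.15-fold), Ddit3 at 253 and 103 CPM (2.46-fold) and Gdf15 at 42.9 and 11.8 CPM (3.64-fold). Trib3 joined them, with 49 UMIs in library 1 and 9 in library 2, a ratio of 4.30 (2.09 to 9.95). Asns went the other way, with 25 UMIs in library 1 and 43 in library 2, a ratio of 0.459 (0.269 to 0.769). Atf4 (1.51-fold), Xbp1 (1.39-fold), Sesn2 (1.90-fold) and Ddit4 (1.10-fold) were close to their values over all cells. The libraries filled this class mostly from different clusters. With at least 50 cells of a library, library 1 held clusters 0, 1, 2, 3, 4 and 7 and library 2 held 8, 9, 10, 11 and 16. Cluster 0 also had 7 cells of library 2. Clusters 8, 9, 10, 11 and 16 each had between 6 and 22 cells of library 1.

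The ratios of Hspa5, Herpud1, Ddit3, Atf4 and Ddit4 were lower in the cells with few microglia markers, and those of Xbp1 and Asns were higher. In cells with at most 1 of the 9 microglia markers, 77 in library 1 and 78 in library 2, Herpud1 was lower in library 1, at 139 against 197 CPM (0.708-fold, interval 0.504 to 0.982). Ddit3 stood at 42.1 and 72.9 CPM (0.577-fold, 0.305 to 1.04) and Hspa5 at 571 and 436 CPM (1.31-fold, 1.09 to 1.57). Xbp1 stood at 181 and 80.6 CPM (2.25-fold, 1.55 to 3.29), and Asns at 36.8 and 24.8 CPM (1.48-fold, 0.671 to 3.24) from 14 and 16 UMIs. Atf4 stood at 124 and 152 CPM (0.813-fold, 0.562 to 1.16) and Ddit4 at 23.7 and 38.8 CPM (0.610-fold, 0.251 to 1.35). Gdf15 had only 1 and 2 UMIs there, Sesn2 had 1 and 1, and Trib3 had 0 and 16. These cells are a mixture of epithelial, neuronal and other cells whose makeup differed, with median depths of 965 and 7384 UMIs, and the part of that makeup and depth in these ratios was not tested.

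The rest of the pathways gives the setting for these values. The lists below exclude the 10 genes, and a gene counts as measured from 20 UMIs. Of 20 ER chaperones and folding enzymes, targets of ATF6 and XBP1, none passed 2-fold in either direction, and their median log2 ratio was -0.11. The chaperone of the HSP90 kind, Hsp90b1, stood at 539 CPM in library 1 and 714 CPM in library 2. The lectin chaperone Calr stood at 761 and 981 CPM, and the disulfide isomerase Pdia3 at 631 and 686 CPM. Summed over the list, the level was 4461.3 CPM in library 1 and 5066.3 CPM in library 2. Hspa5 was thus higher in library 1 while the summed level of the other ER chaperones was lower there.

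Of 24 measured genes for IRE1-XBP1 targets and ERAD, none passed 2-fold, and the median log2 ratio was 0.08. The highest ratios among the named genes were those of the BiP cochaperone gene Dnajb9, at 188 and 105 CPM (1.80-fold), and of Edem2, which takes part in the disposal of misfolded glycoproteins, at 169 and 97.5 CPM (1.73-fold). Derl1, a channel component of ERAD, stood at 201 and 141 CPM (1.43-fold).

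Of 25 measured PERK-ATF4 targets, 2 were more than 2-fold higher in library 1 and 3 in library 2, and the median log2 ratio was -0.16. Some of those higher in library 2 lay near the limit of 20 UMIs. In microglia-like cells, with 24 targets measured, the counts were 2 and 1. Atf3, an early stress factor, was 7.46-fold higher in library 1 (7758.8 against 1040.1 CPM), and Sqstm1, an autophagy receptor gene, was 3.71-fold higher (508 against 137 CPM). The amino acid transporter gene Slc3a2 stood at 580 and 622 CPM and the factor Cebpb at 676 and 689 CPM, close to equal. Atf5 was 4.61-fold higher in library 2 over all cells (19.3 against 88.8 CPM), and in microglia-like cells the ratio of library 1 over library 2 was 0.637. It was among the 10 genes with the highest fold in the sensory-neuron-like cluster. Of 12 aminoacyl-tRNA synthetase genes, many of which are ATF4 targets, only Wars passed 2-fold and was higher in library 2 (20.9 against 55.3 CPM), and the list median was 0.20.

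Of 20 measured sensors, kinases and phosphatases, only Eif2ak2 passed 2-fold. It encodes PKR, the eIF2α kinase that senses double-stranded RNA and is itself an interferon-induced gene, and it was 5.47-fold higher in library 2 (28.4 against 156 CPM). Of 7 measured mitochondrial stress genes none passed 2-fold. Of 12 hypoxia genes 1 was more than 2-fold higher in each library, and the median log2 ratio was 0.35. Of 9 measured glucocorticoid targets 5 were more than 2-fold higher in library 1 and 1 in library 2. Of 13 p53 targets 2 were more than 2-fold higher in library 1, Cdkn1a (2.69-fold) and Bbc3 (3.03-fold), and 1 in library 2.

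**Figure D2:**
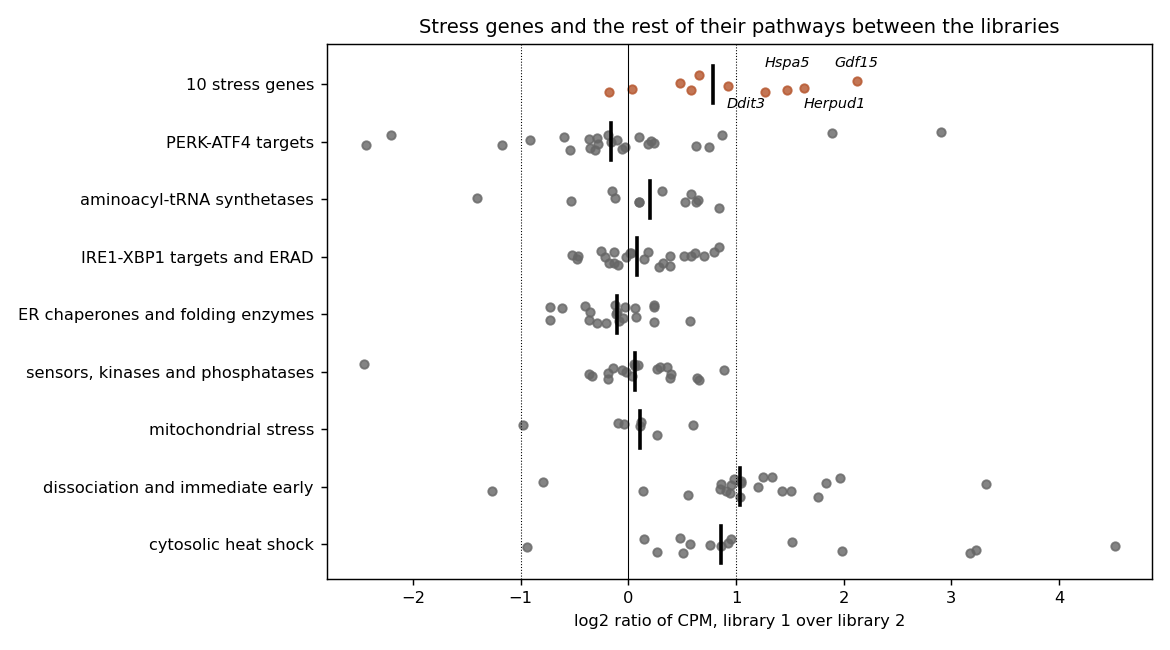
Log2 ratio of CPM between library 1 and library 2 for the 10 stress genes and for the genes of 8 lists with at least 20 UMIs, each point a gene, with the list median as a bar and 2-fold as dotted lines. Hspa5, Herpud1, Ddit3 and Gdf15 lie beyond 2-fold while the ER chaperone and ERAD lists centre near 0, and the early and heat shock lists sit to the right.

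Genes that answer to tissue dissociation moved with these results. Of 22 dissociation and immediate early genes, 12 were more than 2-fold higher in library 1 and 1 in library 2, and the median log2 ratio was 1.04. Fos stood at 9076.1 and 3606.0 CPM, and Jun at 10543.5 and 2957.5 CPM. Of 15 cytosolic heat shock genes 5 were more than 2-fold higher in library 1 and none in library 2, led by Hspb1 (22.9-fold). In microglia-like cells the early list took 6.28% of the UMIs of library 1 and 2.64% of those of library 2, and the heat shock list 0.730% and 0.408%.

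Hspa5, Herpud1, Ddit3 and Atf4 were compared at like shares of early gene transcripts, by splitting the microglia-like cells of each library into tertiles of that share. Within each library all 4 genes were higher in each successive tertile. The lowest tertile of library 1 and the highest of library 2 had similar median shares, 3.76% and 4.05%. There, Hspa5 stood at 3064.1 CPM in library 1 and 1376.3 CPM in library 2, Herpud1 at 803 and 342 CPM, and Ddit3 at 203 and 122 CPM. Atf4 stood at 419 and 389 CPM, much closer together.

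**Figure D3:**
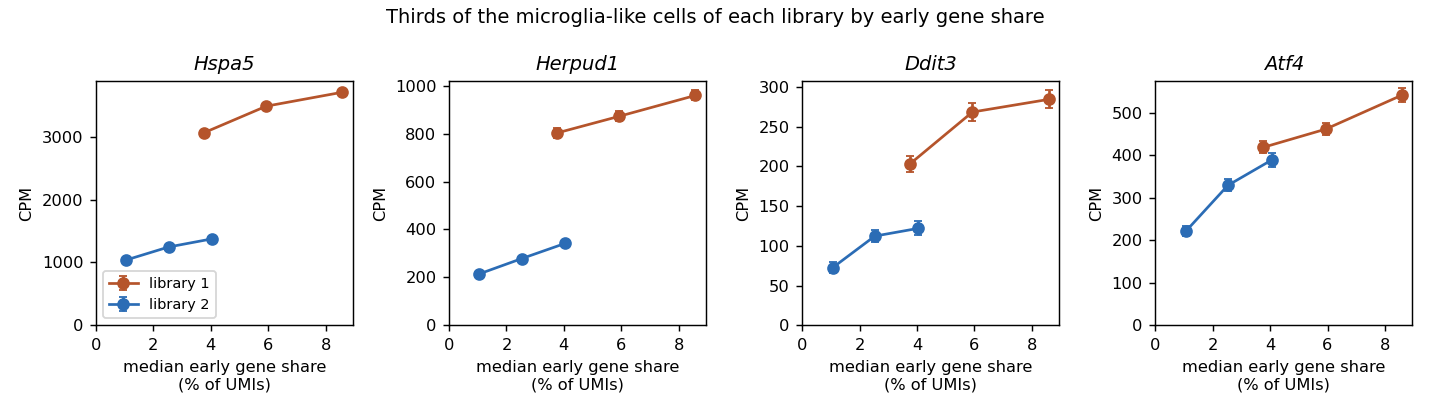
CPM of Hspa5, Herpud1, Ddit3 and Atf4 in tertiles of the microglia-like cells of each library, against the median share of UMIs from dissociation and immediate early genes, with exact 95% counting intervals. Where the shares of the libraries meet, Hspa5, Herpud1 and Ddit3 of library 1 lie above those of library 2, while the Atf4 values lie close together.

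The same was computed over the range of early gene share that both libraries held, 2.46% to 5.17%, with 1052 and 851 cells. The ratios there were 2.42 (2.37 to 2.47) for Hspa5, 2.65 (2.53 to 2.76) for Herpud1, 2.66 (2.17 to 3.26) for Gdf15 and 2.04 (1.58 to 2.65) for Sesn2. Ddit3 came to 1.83 (1.69 to 1.97), Xbp1 to 1.33 (1.24 to 1.42) and Atf4 to 1.17 (1.12 to 1.23). Trib3 came to 1.87 (0.538 to 7.25) and Ddit4 to 1.08 (0.724 to 1.61). Asns went the other way, at 0.457 (0.186 to 1.02). In this range the ratios of Hspa5, Herpud1, Gdf15 and Sesn2 were above 2-fold and that of Ddit3 was below it. Asns passed 2-fold toward library 2, and the intervals of Sesn2 and Asns included 2-fold. No share over all genes is given for this range. Against all microglia-like cells, the ratio of Atf4 was nearer to 1 and that of Sesn2 was higher (1.90 over all of them). Median shares in this range were still 4.15% and 3.42%, and the part of dissociation in these values was not tested.

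In tertiles of mitochondrial share, Hspa5 was lower where the share was higher, from 3819.3 to 3144.1 CPM in library 1 and from 1300.6 to 1136.3 CPM in library 2. The tertiles of the libraries mostly lay at different shares, with medians of 0.869% to 2.38% in library 1 and 2.16% to 5.37% in library 2. In tertiles of depth, Hspa5 ranged from 3149.8 to 3581.2 CPM in library 1 and from 1111.8 to 1275.2 CPM in library 2, which did not overlap.

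The cells were clustered after the 10 genes and the pathway lists had been set aside from the choice of variable genes. Among microglia-like clusters with at least 50 cells of a library, 4 of the 10 genes were higher in every cluster of library 1 than in every cluster of library 2, namely Hspa5, Herpud1, Ddit3 and Xbp1. The same held for 14.1% of 12391 genes. Clusters of a library share its RNA preparation and are not replicates.

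Hspa5 ranged from 2198.1 CPM in cluster 0 to 4576.9 CPM in cluster 2 in library 1, and from 1058.8 CPM in cluster 9 to 1344.9 CPM in cluster 10 in library 2. Herpud1 ranged from 382 CPM in cluster 0 to 1490.4 CPM in cluster 2, and from 179 CPM in cluster 9 to 352 CPM in cluster 10. The same clusters therefore stood at the ends of both genes in each library. Cluster 2 was led by the stress gene Gadd45b and the cytokine gene Il1a, and cluster 0 by Hspa1b and Hspa1a. Those HSP70 genes also led clusters 1 and 4, and the cytosolic heat shock list summed to 5829.2 CPM in cluster 0 and 8984.0 CPM in cluster 4. Cluster 9 was led by Apoc1, Saa3 and Lgals3, and cluster 10 by the chemokine gene Cxcl9.

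Ddit3 had another order. It ranged from 123 CPM in cluster 0 to 370 CPM in cluster 3 in library 1, with 228 CPM in cluster 2, and from 73.6 CPM in cluster 9 to 120 CPM in cluster 11 in library 2. Gdf15 was also highest in cluster 3, at 100 CPM, and lowest in cluster 0, at 4.70 CPM, which overlapped the 4.22 to 13.6 CPM of the clusters of library 2. Cluster 3 was led by Adamts1, Ccl4 and Atf3. Of the 5 genes with at least 500 UMIs in each library, Xbp1 varied least over the clusters of library 1, from 216 to 254 CPM in library 1 and from 136 to 174 CPM in library 2.

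Atf4 overlapped between the libraries, with 283 to 572 CPM in library 1 and 238 to 362 CPM in library 2, as did Sesn2, with 10.6 to 23.9 CPM and 6.57 to 13 CPM. Cluster 16 held dividing cells marked by Mki67, 84 of library 2 and 22 of library 1. Its library 2 cells had 1172.9 CPM of Hspa5 and 99.5 CPM of Ddit3, within the range of the other clusters of that library. Its library 1 cells had 1916.8 CPM of Hspa5, below the 2198.1 CPM of cluster 0, and 184 CPM of Ddit3. In the interferon-marked cluster 8, led by Ifit3, library 2 cells had 1258.6 CPM of Hspa5 and 111 CPM of Ddit3, also within the range of library 2.

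**Figure D4:**
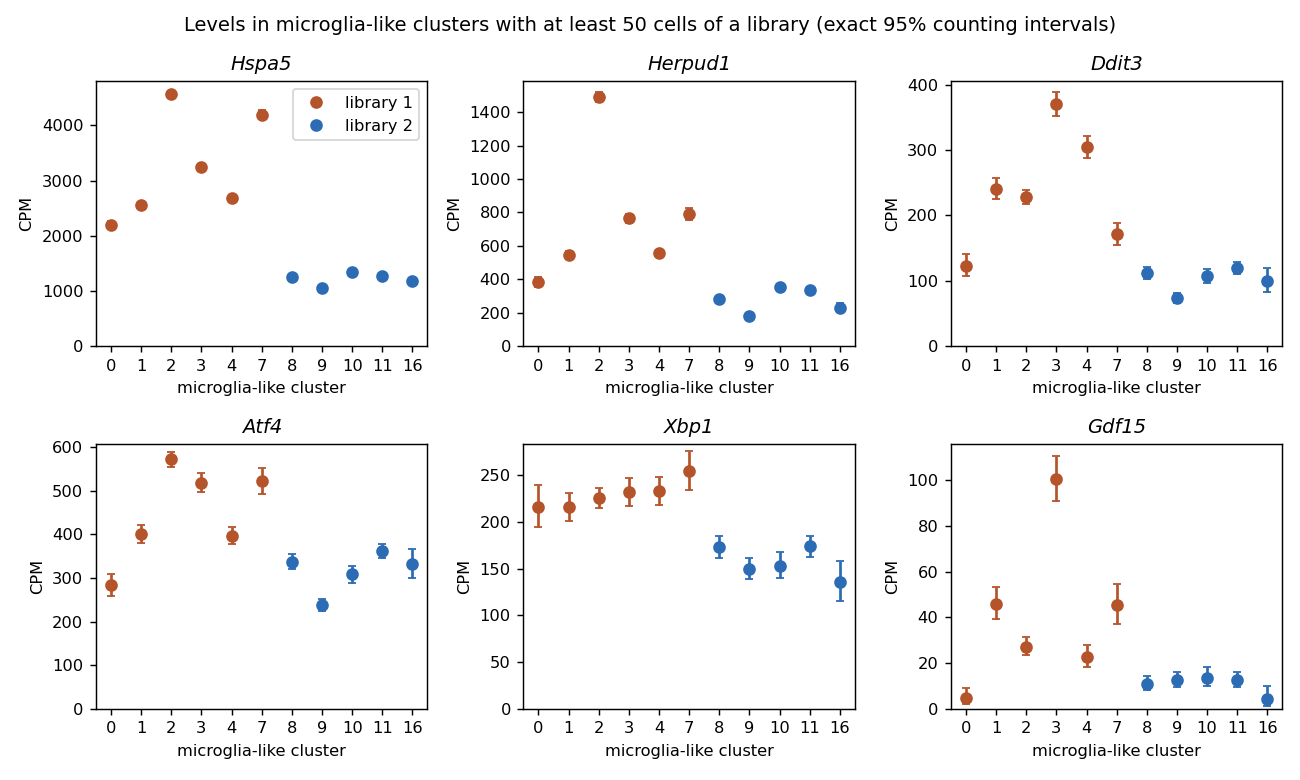
CPM of 6 stress genes in each microglia-like cluster with at least 50 cells of the library shown, with exact 95% counting intervals. Every cluster of library 1 lies above every cluster of library 2 for Hspa5, Herpud1, Ddit3 and Xbp1, and Gdf15 is highest in cluster 3.

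The summed level of the other ER chaperones did not follow Hspa5 over these clusters in library 1. In cluster 2, where Hspa5 was highest, they summed to 4145.9 CPM, and in cluster 0, where Hspa5 was lowest in library 1, to 5073.0 CPM. In library 2, cluster 10 was highest in both, with 5735.1 CPM of the other chaperones and 1344.9 CPM of Hspa5. Cluster 11, next in Hspa5 at 1274.1 CPM, had the lowest sum of that library, 4681.6 CPM. The early gene list summed to 65990 CPM in cluster 2 and 41287 CPM in cluster 0, so it stood higher where Hspa5 did in this pair. It was higher still in clusters 7 (73158 CPM) and 3 (69332 CPM), where Hspa5 was lower than in cluster 2, at 4192.2 and 3254.1 CPM. In library 2 it summed to 22354 CPM in cluster 10 and 35036 CPM in cluster 11, the reverse of their order in Hspa5.

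Profiles most like each gene were ranked by the mean of both within-library Pearson correlations over 8 and 6 clusters of at least 50 cells, among 7624 genes, as a description only. Hspa5 was most like Fbrs, Basp1 and the adhesion molecule gene Icam1 (mean r = 0.96 each). Herpud1 was most like Maff, Il1a and the NF-κB inhibitor gene Nfkbie (0.95 each). Ddit3 was most like the kinase gene Pim3 (0.92), Bbc3 (0.89) and Hic2 (0.89). Atf4 was most like H3f3b, Yrdc and Tnpo3 (0.96 each), and Xbp1 like Acss1 (0.92), Zdhhc20 (0.91) and Ppil4 (0.91). With so few clusters the neighbours changed with the choice of clusters. Over microglia-like clusters only, Xbp1 was most like Dnajb9 (0.97) and Herpud1 like Il1a (0.99). Over the 10 and 7 clusters with at least 30 cells, Xbp1 was most like Pan3, Stat5a and Rest (0.93 each), and Herpud1 like Nfkbib (0.89), Kdm6b (0.89) and Maff (0.88). Over single microglia-like cells thinned to 1000 UMIs, Spearman correlations were taken between pairs of 8 of the genes (all but Trib3 and Asns). They lay between -0.039 and 0.17, and most were too weak in such sparse counts to be read. The highest was that of Herpud1 with Hspa5, at 0.17 in library 1 and 0.034 in library 2. At 2000 UMIs this pair, which is less sparse, stood at 0.24 and 0.15.

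The sparse genes were not spread evenly over cell classes. Of the 73 Asns UMIs of library 1, 43 came from 65 nasal-epithelial-like cells, at 97.2 CPM (70.3 to 131), where 9 cells held the transcript and 22 of the UMIs lay in 1 cell. These cells were shallow, with a median of 831 UMIs. In the 37 sensory-neuron-like cells of library 2, Asns had 12 UMIs, or 25.4 CPM. The near-equal Asns levels over all cells thus joined a low level in microglia-like cells of library 1 with a group of epithelial cells that library 2 held only 6 of.

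Trib3 was held in library 2 mostly by the sensory-neuron-like cells, which gave 16 of its 25 UMIs in 7 cells (33.9 CPM, 19.4 to 55.0). In library 1, 49 of its 50 UMIs were in microglia-like cells. The overall ratio of 1.57 thus joined different cell classes.

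Ddit4 stood at 6.70 and 6.07 CPM in microglia-like cells. It was higher in the ensheathing-like glia, at 31.3 CPM (12.6 to 64.5) in library 1 and 25.2 CPM (13.4 to 43.2) in library 2, and in the sensory-neuron-like cells of library 2, at 29.6 CPM (16.2 to 49.7). The counting intervals of these classes overlapped each other and lay above those of the microglia-like cells. An unnamed cluster of 10 cells in library 1, led by genes such as Cpa3 and Fcer1a, held 12 Ddit4 UMIs, or 202 CPM (105 to 353), in 6 cells.

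Gdf15 stood at 412 CPM (357 to 473) in the 53 border-macrophage-like cells, which all came from library 1, where microglia-like cells stood at 42.9 CPM. Its 201 UMIs there lay in 17 cells, with up to 51 in a cell. Hspa5 in these cells stood at 2161.1 CPM, below the 3430 CPM of the microglia-like cells.

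**Figure D5:**
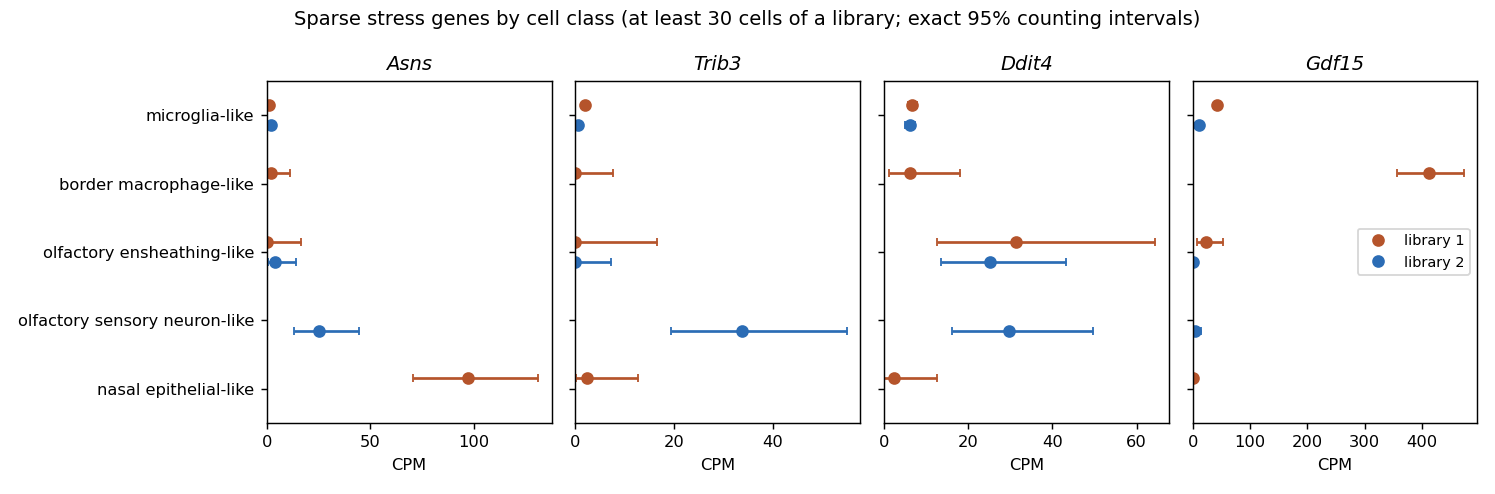
CPM of Asns, Trib3, Ddit4 and Gdf15 by cell class and library, for classes with at least 30 cells of a library, with exact 95% counting intervals. Asns is highest in nasal-epithelial-like cells of library 1, Trib3 in sensory-neuron-like cells of library 2, and Gdf15 in border-macrophage-like cells of library 1.

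The ensheathing-like cluster, which held cells of both libraries, gave values for another class. Hspa5 there stood at 2475.9 CPM in 40 cells of library 1 and 1021.2 CPM in 61 cells of library 2, and Herpud1 at 474 and 208 CPM, whereas Atf4 stood at 241 and 278 CPM. That cluster also summed to 8933.2 CPM of microglia markers, and the part of microglial RNA in these values was not tested. In the sensory-neuron-like cells, which were nearly free of microglia markers, Hspa5 stood at 321 CPM (218 to 455) in 7 cells of library 1 and 442 CPM (384 to 507) in 37 of library 2. Herpud1 stood at 228 and 237 CPM there, and Ddit3 at 82.8 and 97.4 CPM, with overlapping intervals for all 3 genes.

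The ER stress element was also looked up across the other promoters, because Hspa5 shares it with chaperone genes that did not differ in the same way. The element of each gene is printed on the strand on which it reads as given, with the bases of the motif in capitals and the spacer in lower case.
Hspa5, chr2:34772025-34772043: CCAATcggaggcctCCACG
Hsp90b1 (site 1), chr10:86705533-86705551: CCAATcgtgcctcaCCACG
Hsp90b1 (site 2), chr10:86705638-86705656: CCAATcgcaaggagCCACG
Calr, chr8:84847075-84847093: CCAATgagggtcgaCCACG
Canx, chr11:50325800-50325818: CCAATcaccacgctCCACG
Pdia6, chr12:17266491-17266509: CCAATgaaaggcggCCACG
Creld2, chr15:88819520-88819538: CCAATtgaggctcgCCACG
Dnajc3, chr14:118937827-118937845: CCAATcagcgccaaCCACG

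These genes share the motif of Hspa5 with different spacers, and those of Calr, Creld2 and the first site of Hsp90b1 were on the opposite strand of the gene. Hsp90b1 (0.755-fold), Calr (0.776-fold), Creld2 (0.652-fold) and Pdia6 (0.933-fold) were not higher in library 1, while Canx (1.18-fold) and Dnajc3 (1.3-fold) were slightly higher. An ERSE was held by 5 of 16 promoters of the chaperone list that the RefSeq set contained, and by 3 of 20 of the ERAD list. Apart from Hspa5 and Herpud1, 20 measured genes held an ERSE or ERSE-II, and their median log2 ratio was 0.000945, with 1 gene more than 2-fold higher in each library. Genes with the element thus lay on both sides of equal levels.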

How the data were processed

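Single-cell RNA libraries of 2 pools of 5 mice were analysed from 1 matrix of UMI counts. The deposited counts are raw whole numbers per gene and barcode that Cell Ranger 3.1.0 wrote (format 2, per the file headers). Of further tools, bcl2fastq and UMI-tools appear in the submitters' processing notes, with no version. The aligner, genome build and annotation release were not given in the sources used here. Barcode suffixes could not be tied to healthy or EAE mice, so that comparison was not made.

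Kept cells had 200 genes or more, and mitochondrial genes made up 20% of their UMIs or less. UMIs were summed per library or cluster and divided by the total (CPM), with exact Poisson 95% intervals, exact conditional intervals for ratios and exact binomial (Clopper-Pearson) intervals for shares of cells, all of which cover counting error only. Ratios carry no pseudocount, except where genes were ranked for naming and in correlations over clusters (10 CPM). Shares of cells with a UMI were taken after thinning to 1000 UMIs and also on all UMIs. Cells were clustered with Scanpy 1.11.5 and igraph 0.11.9 (Leiden, resolution 1, 2000 variable genes, 30 components, 15 neighbours), in Python 3.11.15 with NumPy 2.4.6, SciPy 1.17.1, pandas 2.3.3 and scikit-learn 1.9.0. Scrublet called 1 cell in each library, a rate too low to be trusted, so doublets may remain. Genes past 2-fold were counted among genes with at least 20 UMIs. In simulated counts for 13891 genes of the 2 libraries, all 100 genes changed 4-fold were recovered, and 0.541% of unchanged genes passed 2-fold toward library 1. The simulation held counting error only. It cannot say how often unchanged genes pass 2-fold between real pools of mice or libraries.

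The 10 genes and the lists were chosen with earlier results of these data known. Named list genes are examples from each list, drawn from the 3 highest in CPM and the 3 largest in absolute log2 ratio, and for likeness the 3 highest mean correlations. Chosen after the values were seen were the cluster names, the genes named for an ER stress element, the motif list, the cells with at most 1 microglia marker, the tertiles, the shared range of early gene share and the breakdown by class. A cluster took the name of a marker list with at least 3 genes among its 50 highest folds. Failing that, the name microglia-like was given when at least 5 of 9 markers reached 100 CPM and their sum reached 25% of that over all kept cells, a condition added after a cluster of 10 cells had passed without it. Names rest on transcripts alone. Vimp and Dele1 were not in the feature list and were not used here. Promoters are RefSeq sequences of build GRCm38.p6, and 32851 of them were searched.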

Additional observations from a re-analysis of the deposited data

Results flagged for a closer look

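Hspa5 transcripts were also found in barcodes that the cell filter left out, which no comparison used. The 432 such barcodes of library 1 held 74 Hspa5 UMIs, or 147.1 CPM (116 to 185), and the 512 of library 2 held 88, or 88.84 CPM (71.3 to 110). These are signals above the limit that a count of 0 allows, and both lie far below the 3324.8 and 1196.3 CPM of the kept cells. Nearly all of these barcodes exceeded the mitochondrial limit, 429 and 510 of them, with median mitochondrial shares of 63.9% and 51.3%. The part of damaged cells in these values was not tested.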

How the results depend on the processing

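With 1 library on each side, no result has a replicate check. No paired analysis was possible because each group is 1 sample with no replicate number. Under the alternatives, 14 of 17 counts stayed within 1.5 times. Of 250 other values, 147 stayed within the counting interval or tolerance set for them, 100 moved beyond it and 3 were counted as turned. The count of genes more than 2-fold higher in library 1, 4 of 10, became 7 with a limit of 1.5-fold (16.7% of all genes), at which Atf4 stands on the line, and 1 (Xbp1) in cells with at most 1 microglia marker (12.8%). Under all other settings it was 4 to 6. It was 6 for a mean over cells and 6 without called doublets and the 5% deepest cells. In both, Sesn2 (2.11 and 2.03) and Trib3 (2.06 and 2.61) passed. No share of all genes is given here for these settings, so the counts of 6 are not set against one. In cells with at most 1 microglia marker the direction was counted as turned for Ddit3 (0.577), Herpud1 (0.708) and Gdf15 (0.848, from 1 and 2 UMIs). The ratios of Atf4 (0.813), Ddit4 (0.610) and Asns (1.48) also crossed equal levels there, and Trib3 had 0 and 16 UMIs. The cause was not tested. The count of genes higher in every cluster of library 1, 4 at resolution 1, became 2 (Hspa5 and Xbp1) at resolution 2, with 6.18% of all genes, and was 6 at resolution 0.5, with 26.6%. Asns moved from 0.884 to 0.459 in microglia-like cells, to 0.376 without called doublets and the 5% deepest cells and to 0.0465 without the 1% of cells with most of its UMIs, which hold 97.3% of them in library 1. Trib3 moved from 1.57 to 4.30 in microglia-like cells and to 1.06 with a pseudocount of 10 CPM, which also took Gdf15 from 4.35 to 2.77. Scaling without mitochondrial, ribosomal protein and haemoglobin genes gave 2.55 for Hspa5 and 2.22 for Ddit3. Without the 1% of cells with the most Trib3 UMIs, library 2 held no such UMI and no ratio was formed. Trib3, Asns and Ddit4 are limited by depth, with under 200 UMIs in each library.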

Other observations

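In the cells with few microglia markers, a large part of the Xbp1 transcripts lay in 1 cell of each library, which held 25 of 69 UMIs in library 1 and 19 of 52 in library 2. Xbp1 stood at 38.1 CPM in the sensory-neuron-like cells of library 2, and at 162 CPM in its microglia-like cells.

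The cytosolic chaperones gave unequal values beside BiP. Hspa8, the constitutive cytosolic HSP70 gene, stood at 2782.6 and 1995.4 CPM (1.39-fold), and the inducible Hspa1a at 501 and 55.5 CPM (9.03-fold). The mitochondrial HSP70 gene Hspa9 stood at 75.4 and 62.5 CPM (1.21-fold) and Hspe1, the small partner of mitochondrial HSP60, at 198 and 389 CPM (0.509-fold). Among HSP70 genes of these compartments, the ER member Hspa5 (2.78-fold) thus lay between the constitutive and the inducible cytosolic members.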
